A study of Homo sapiens with 8 samples.

Results

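Transcript levels of 42 genes of the heat shock and endoplasmic reticulum (ER) chaperone systems were compared between BT-549 cells given vehicle, EC359, vorinostat or both drugs. The genes were chosen by symbol, and all 42 symbols were found among the 23228 genes listed for each library. By the textbook location of the protein they were divided into 2 heat shock factors, 17 cytosolic chaperones and co-chaperones, 4 mitochondrial chaperones, 14 ER chaperones and folding enzymes, 2 genes of ER-associated degradation (ERAD) and 3 sensors of the unfolded protein response (UPR). After a filter on low counts 41 of the 42 were tested, and CRYAB, a small heat shock protein with 0 to 8 reads per library, was not.

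BT-549 is an established triple negative breast cancer (TNBC) cell line, grown here in RPMI medium with serum, and it is the one line sequenced. Cells received vehicle (DMSO), 100 nM EC359, an inhibitor of the leukemia inhibitory factor receptor LIFR, 10 µM vorinostat, a histone deacetylase inhibitor (HDACi), or both drugs at those doses, called the combination, for 24 h. RNA-seq of total RNA gave 2 libraries per group and 8 in all. The labels do not say whether the 2 libraries of a group came from separate cultures, so the p-values measure only the spread between these libraries, which may be technical.

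Chaperones bind unfolded proteins and help them fold, and cells make more of them when proteins misfold. In the cytosol the heat shock factor HSF1 is held inactive by chaperones until unfolded proteins draw them away, and it then binds repeated GAA units, called heat shock elements, in the promoters of HSP70, HSP90 and J-domain genes. In the ER the HSP70 protein BiP, the product of HSPA5, holds the sensors IRE1 (ERN1), PERK (EIF2AK3) and ATF6 inactive, and their release starts the UPR, in which the factors XBP1, ATF6 and ATF4 raise the transcription of ER chaperones, ERAD genes and stress genes. HDAC inhibitors raise the acetylation of histones and of other proteins, HSP90 among them.

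Each library held 19069450 to 24759041 reads counted on genes, and 13694 genes passed the filter and were tested. Levels are given as CPM, the counts of a gene per 1000000 counts of its library after scaling by the TMM method. The BT-549 label was checked against markers. VIM, ZEB1, CD44 and FN1, expected in mesenchymal cells, summed to between 5726 and 16198 CPM per library, with both combination libraries highest. ESR1, PGR, EPCAM and CDH1, expected low, summed to between 0.374 and 6.89 CPM, PTPRC and PECAM1 of leukocytes and endothelium to between 0 and 0.708 CPM, and the part of these differences in the results was not tested. When the libraries of a group were set against each other, their log2 differences over the chaperone genes had an SD of 0.195 in vehicle, 0.531 under EC359, 0.0795 under vorinostat and 0.209 in the combination, so that EC359 values were the least precise. A gene passed a comparison at a Benjamini-Hochberg adjusted p under 0.01, over all tested genes, in the quasi-likelihood test of edgeR. A log2 fold change is printed as the value ± its standard error, and every p printed beside one is from this test.

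Vorinostat moved the chaperone genes in both directions within the same compartments, and the largest change of an ER folding gene was that of HSPA5. Vorinostat raised 11 of the 41 tested genes and lowered 13 against vehicle, beside 26.2% of all tested genes raised and 25.9% lowered. The combination raised 12 and lowered 13 against vehicle, where 29.7% and 26.7% of all tested genes were raised and lowered. Against EC359 it raised 13 and lowered 17, beside 29.5% and 26.3%. EC359 alone raised HSPA9 and lowered HSPA5 and HSPB1, which is 1 and 2 genes, beside 3.81% and 4.01% of all tested genes. Adding EC359 to vorinostat raised 5 and lowered 5, beside a background of 8.45% and 5.26%. Of the chaperone genes 58.5% thus passed in either direction with vorinostat, where 52.1% of all tested genes did, and 61% passed in the combination against vehicle, where 56.4% did. With EC359 alone 7.32% passed, close to the 7.82% of all tested genes. Shares above those of all genes were seen in the combination against EC359, at 73.2% beside 55.8%, and on adding EC359 to vorinostat, at 24.4% beside 13.7%. The comparisons against vehicle share its 2 libraries and are not independent of each other. In bulk RNA a lower level from fewer cells of a kind and one from less RNA per cell cannot be told apart.

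**Figure D1:**
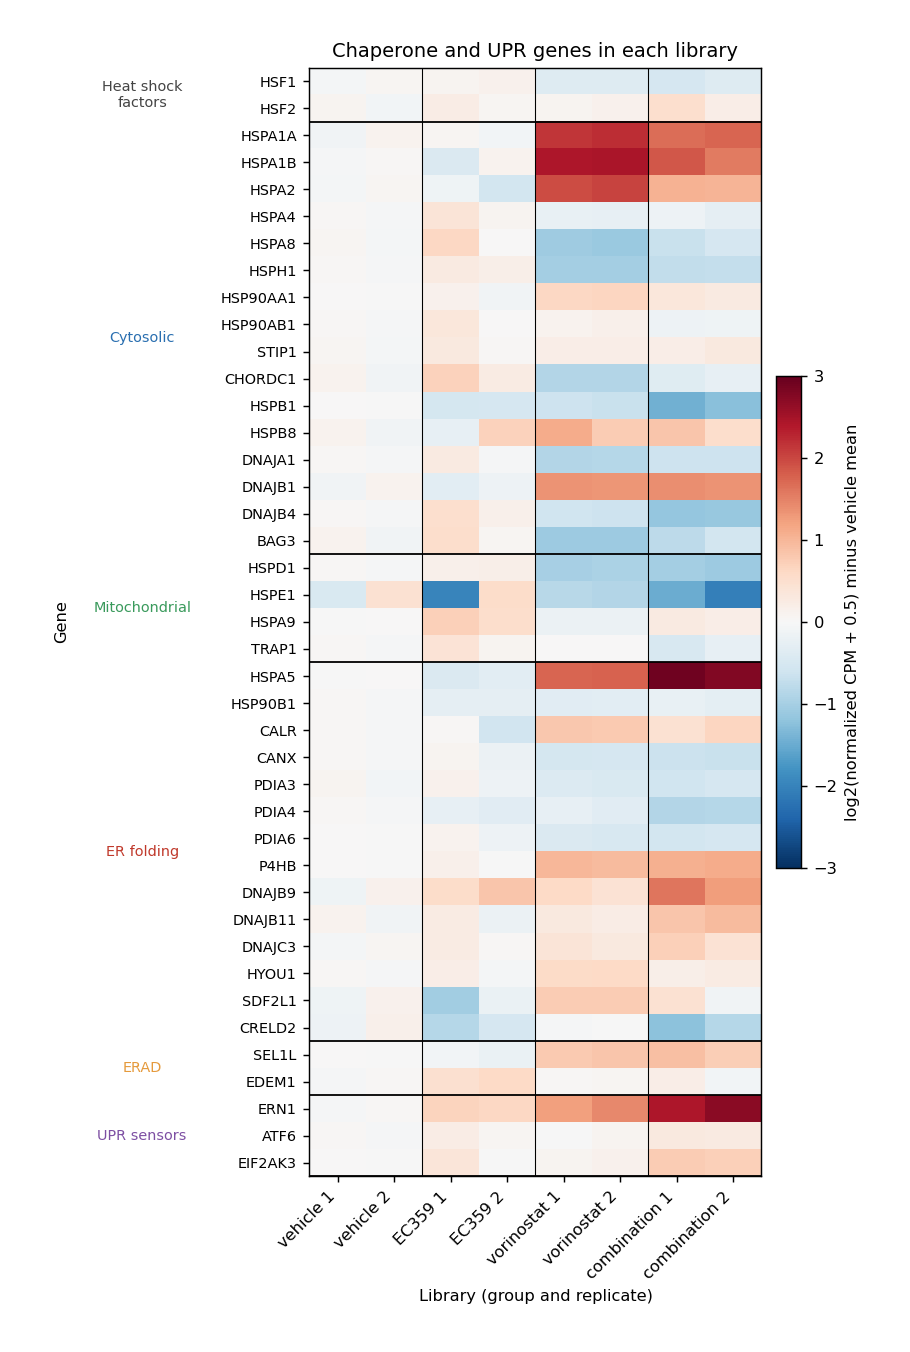
Each row is 1 of the 41 tested genes and each column 1 library; the color is the log2 of normalized CPM plus 0.5 minus the mean of the 2 vehicle libraries. HSPA1A, HSPA1B, HSPA2, DNAJB1, HSPA5, P4HB and ERN1 are red in all 4 libraries with vorinostat, and HSPA8, HSPH1, BAG3, DNAJA1 and HSPD1 are blue in them.

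By compartment, the median log2 fold change of vorinostat against vehicle was -0.05 for the cytosolic genes, with 5 raised and 7 lowered of 16 tested. The median was -0.56 for the mitochondrial genes, with 1 of 4 lowered, and 0.30 for the ER folding genes, with 4 raised and 4 lowered of 14. Of the others, 1 heat shock factor was lowered, and 1 of 2 ERAD genes and 1 of 3 UPR sensors were raised. Over all tested genes the median was 0.03, with 26.2% raised and 25.9% lowered. With so few genes per compartment, several of these counts were near those shares. In the combination against vehicle the medians were -0.18 for the cytosolic, -0.70 for the mitochondrial and 0.20 for the ER folding genes, and 0.75 for the 3 UPR sensors, beside 0.07 over all tested genes. The compartments therefore overlapped widely, and each of the 2 large ones held genes over 2-fold higher and genes over 2-fold lower in the combination than in vehicle.

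Counts of a fold over 2 gave a narrower picture. Of the genes that passed, 6 were raised and 3 lowered over 2-fold by vorinostat, where 16.8% and 13.3% of all tested genes were. In the combination against vehicle 8 were raised and 4 lowered over 2-fold, beside 19.5% and 15.3% of all tested genes. The 3 lowered by vorinostat were HSPA8, HSPH1 and BAG3. In the combination the 8 raised were HSPA1A, HSPA1B, HSPA2, DNAJB1, HSPA5, P4HB, DNAJB9 and ERN1, and the 4 lowered were HSPB1, DNAJB4, HSPD1 and CRELD2. On adding EC359 to vorinostat HSPA5 and ERN1 rose and CRELD2 fell over 2-fold, 2 and 1 genes beside 3.37% and 0.876% of all tested genes. Against EC359 the combination raised 7 and lowered 2, DNAJB4 and HSPD1, over 2-fold, where 19.8% and 13.9% of all tested genes were. With EC359 alone 0 of the 41 genes passed over 2-fold in either direction, beside 1.94% raised and 1.72% lowered of all tested genes. Without the fold threshold 14 of the 41 had an unadjusted p under 0.05 in edgeR's test. That was not counted over all tested genes, so the 14 have no background.

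**Figure D2:**
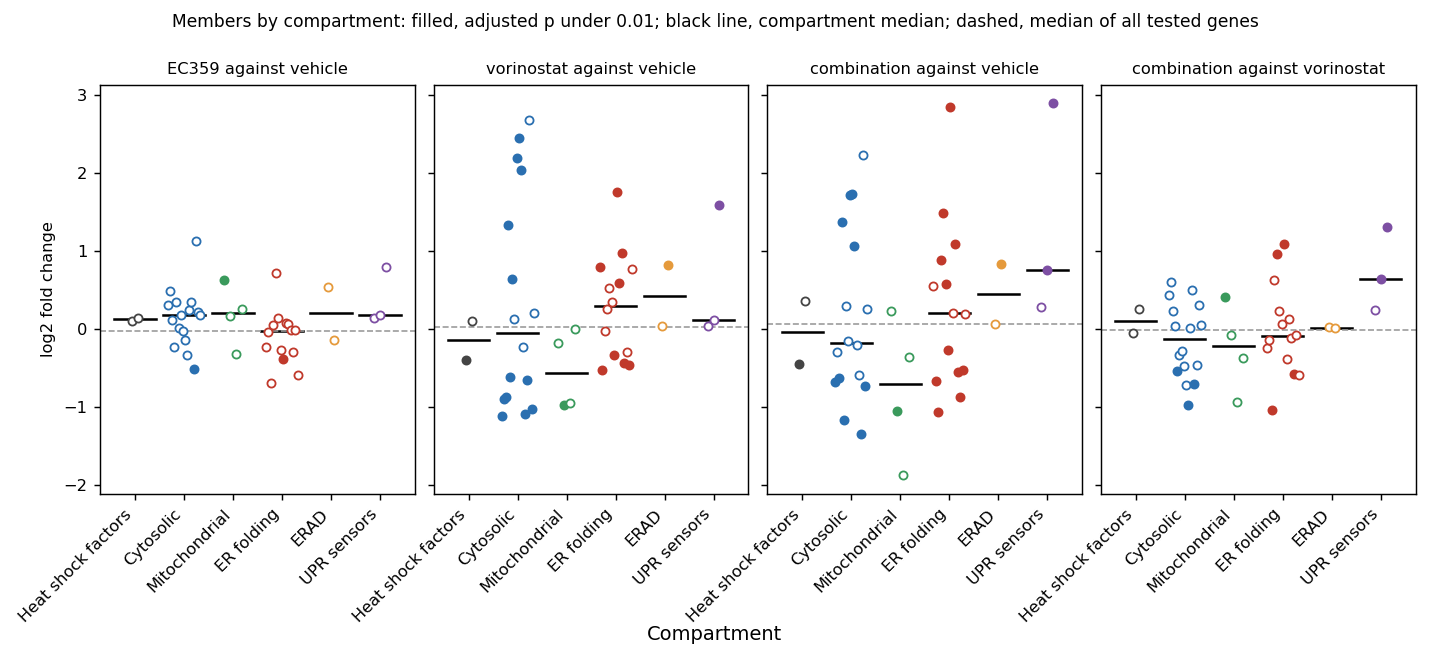
Each point is the log2 fold change of 1 gene in the comparison named above the panel, grouped by compartment; filled points passed an adjusted p of 0.01, black lines are compartment medians and the dashed line is the median of all tested genes. In the vorinostat panel the cytosolic genes run from -1.11 to 2.68, and the highest of them, the open point of HSPB8, rests on 0 to 15 reads per library.

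HSF1 and HSF2 encode transcription factors of the heat shock response. In CPM, HSF1 stood at 156 and 167 in vehicle, 171 and 178 under EC359, 124 and 123 under vorinostat and 114 and 125 in the combination. All 4 libraries with vorinostat lay below all 4 without it, with a log2 fold change of -0.39 ± 0.09 (adjusted p = 0.00416) for vorinostat and -0.44 ± 0.09 (adjusted p = 0.00187) for the combination. HSF2 stood at 27.3 and 24.4 in vehicle, 30.1 and 26.9 under EC359, 27.3 and 28.4 under vorinostat and 37.1 and 29.6 in the combination, and it did not pass in any comparison. Exons of HSF1 overlap the span of DGAT1 on the other strand, and whether reads were counted by strand is not given in the sources used here. 

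The inducible cytosolic HSP70 genes rose with vorinostat. HSPA1A and HSPA1B encode the same stress-inducible HSP70 protein from neighboring genes at chr6:31783320-31785723 and chr6:31795515-31798031 (GRCh37). HSPA1A stood at 50.4 and 59.3 in vehicle, 56.7 and 51.3 under EC359, 245 and 256 under vorinostat and 177 and 184 in the combination. HSPA1B stood at 40.7 and 42.6 in vehicle, 30.5 and 45 under EC359, 225 and 228 under vorinostat and 152 and 124 in the combination. Both genes were near vehicle under EC359, highest under vorinostat and in between in the combination, with no overlap between vehicle, vorinostat and combination libraries. The log2 fold change of vorinostat was 2.19 ± 0.11 (adjusted p = 5.78e-07) for HSPA1A and 2.44 ± 0.18 (adjusted p = 4.01e-06) for HSPA1B. The combination differed from vorinostat by -0.47 ± 0.10 (adjusted p = 0.0101) in HSPA1A and -0.71 ± 0.17 (adjusted p = 0.0134) in HSPA1B, which did not pass. These 2 transcripts share 75.1% of the 50-base stretches of HSPA1A, so the split of reads between them is uncertain. Counted as 1 gene they fell by 0.58 on the log2 scale from vorinostat to the combination, with an adjusted p of 0.00251 in edgeR's test, and rose by 2.31 from vehicle to vorinostat.

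HSPA2, a cytosolic HSP70 known best from the testis, followed the same order. Its CPM were 11.7 and 12.5 in vehicle, 11 and 8.12 under EC359, 48.1 and 50.7 under vorinostat and 25.3 and 25.1 in the combination. The 4 groups of libraries did not overlap, and vorinostat raised it by 2.03 ± 0.15 (adjusted p = 4.91e-06). On adding EC359 to vorinostat HSPA2 fell by 0.97 ± 0.15 (adjusted p = 0.00175). At this threshold HSPA2 was the single gene of the 41 that passed as higher under vorinostat and as lower in the combination than under vorinostat. HSPA1A and HSPA1B had the same order, and counted as 1 gene they passed in both comparisons. DNAJB1, the J-domain protein that hands clients to HSP70, stood at 223 and 255 in vehicle, 193 and 214 under EC359, 606 and 602 under vorinostat and 626 and 609.8 in the combination. Vorinostat and combination libraries of DNAJB1 lay together above the others, at 1.34 ± 0.10 (adjusted p = 3.78e-06) and 1.37 ± 0.10 (adjusted p = 2.35e-06) against vehicle, and they differed from each other by 0.03 ± 0.09 (adjusted p = 0.817). Exons of DNAJB1 lie over TECR on the other strand, a gene with 1504 to 3383 reads per library.

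HSPA8, HSPH1, BAG3 and DNAJA1 fell with vorinostat, whereas HSPA4 did not pass. HSPA8, the constitutive cytosolic HSP70, stood at 2750.1 and 2513 in vehicle, 4056 and 2661 under EC359, 1265 and 1220.2 under vorinostat and 1667 and 1845 in the combination. The 2 EC359 libraries were far apart, and both vorinostat libraries lay below both combination libraries, which lay below vehicle. With vorinostat HSPA8 fell by 1.08 ± 0.17 (adjusted p = 0.000384), and the combination differed from vehicle by -0.58 ± 0.16 (adjusted p = 0.0111). HSPH1, an HSP110 that exchanges the nucleotide of HSP70, stood at 969 and 919.9 in vehicle, 1144 and 1061 under EC359, 462 and 463 under vorinostat and 567 and 573 in the combination. HSPH1 fell by 1.03 ± 0.08 (adjusted p = 5.18e-06) with vorinostat and fell by 0.73 ± 0.08 (adjusted p = 3.33e-05) in the combination. BAG3, a co-chaperone that links HSP70 to autophagy, stood at 67.7 and 58.7 in vehicle, 90.9 and 65.7 under EC359, 29.2 and 29.1 under vorinostat and 36.1 and 42.9 in the combination, and its log2 fold changes in the same comparisons were -1.11 ± 0.16 (adjusted p = 0.000301) and -0.68 ± 0.16 (adjusted p = 0.00486). The HSP70 partner DNAJA1 also fell, with values of -0.87 ± 0.11 (adjusted p = 9.98e-05) and -0.63 ± 0.11 (adjusted p = 0.000629), whereas HSPA4, another HSP110, differed from vehicle by -0.23 ± 0.11 (adjusted p = 0.0878) under vorinostat.

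Of the HSP90 system, HSP90AA1, the stress-inducible cytosolic HSP90, rose with vorinostat by 0.64 ± 0.09 (adjusted p = 0.000169), from 4132 ± 25.7 CPM to 6416 ± 38.9 (mean ± SD, n = 2 libraries). In the combination it differed from vehicle by 0.30 ± 0.09 (adjusted p = 0.0115). The constitutive HSP90AB1 and the adaptor STIP1, which joins HSP70 to HSP90, did not pass in any comparison, with vorinostat values of 0.13 ± 0.11 and 0.20 ± 0.10. CHORDC1, a co-chaperone of HSP90, stood at 67.9 and 58.8 in vehicle, 103 and 75.1 under EC359, 34 and 34.1 under vorinostat and 49.4 and 53.6 in the combination. CHORDC1 fell by 0.90 ± 0.15 (adjusted p = 0.000699) with vorinostat, and its combination libraries lay between those of vorinostat and vehicle, at -0.30 ± 0.15 (adjusted p = 0.103) against vehicle.

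HSPB1 and DNAJB4 fell with vorinostat and fell again when EC359 was added to it. HSPB1, the small heat shock protein HSP27, stood at 261 and 255 in vehicle, 178 and 183 under EC359, 167 and 163 under vorinostat and 95 and 108 in the combination. EC359 and vorinostat libraries lay between vehicle and the combination, and no 2 of the 4 groups overlapped. HSPB1 fell by 0.52 ± 0.09 (adjusted p = 0.00514) with EC359. That call was lost with the replicate block, in the fit on 4 libraries and without any one vehicle or vorinostat library. HSPB1 fell by 0.65 ± 0.09 (adjusted p = 0.000224) with vorinostat and fell by 0.70 ± 0.09 (adjusted p = 0.000894) on adding EC359 to vorinostat. DNAJB4, an HSP40 co-chaperone of HSP70, stood at 197 and 189 in vehicle, 274 and 215 under EC359, 127 and 125 under vorinostat and 85.6 and 87.1 in the combination. DNAJB4 fell by 0.62 ± 0.12 (adjusted p = 0.00132) with vorinostat and fell by 0.54 ± 0.12 (adjusted p = 0.00942) from vorinostat to the combination, and its EC359 value without vorinostat was 0.34 ± 0.12 (adjusted p = 0.0799). HSPB8, at 0 to 15 reads per library, did not pass in any comparison.

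Heat shock elements were looked for in the promoters of these genes, taken from RefSeq on GRCh38.p14 as the 250 bases before and 50 bases after each annotated start. An entry was found for 39 of the 42 genes, not for HSF1, CRYAB and PDIA3. Of all 27305 genes with such a promoter, 0.608% held an element of 3 units (GAA, any 2 bases, TTC, any 2 bases, GAA, on either strand) and 8.21% at least the form of 2 units, which every longer match contains. The element of 3 units was found in HSPA8, HSP90AA1, HSP90AB1, CHORDC1 and DNAJA1, 5 of 16 cytosolic genes (31.2%), and in the mitochondrial HSPD1. HSPA1A, HSPA1B and DNAJB1, which vorinostat raised over 2-fold, held the form of 2 units in these windows and not the longer one. The windows below stand for genes that rose and genes that fell with vorinostat, with the matched units in capitals.
HSPA1A, chr6:31815425-31815456, plus strand: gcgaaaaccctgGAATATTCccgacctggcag
HSPA1B, chr6:31827621-31827652, plus strand: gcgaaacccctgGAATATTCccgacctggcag
DNAJB1, chr19:14518425-14518486, minus strand: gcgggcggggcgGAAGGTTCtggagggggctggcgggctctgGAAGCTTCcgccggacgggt
HSP90AA1, chr14:102087108-102087144, minus strand: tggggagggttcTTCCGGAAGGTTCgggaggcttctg
HSPA8, chr11:123062167-123062203, minus strand: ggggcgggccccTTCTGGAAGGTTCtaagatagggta
CHORDC1, chr11:90223075-90223121, minus strand: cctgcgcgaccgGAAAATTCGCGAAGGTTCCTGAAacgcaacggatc
HSPD1, chr2:197500056-197500090, minus strand: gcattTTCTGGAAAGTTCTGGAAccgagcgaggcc
Of the 6 genes with 3 units, vorinostat raised HSP90AA1 and lowered HSPA8, CHORDC1, DNAJA1 and HSPD1. Of all tested genes it raised 26.2% and lowered 25.9%, and a link between the element and the direction was not tested. A match is a description of the letters and says nothing of whether HSF1 bound there in these cells.

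The mitochondrial chaperones fell with vorinostat or did not pass. HSPD1, the chaperonin HSP60, stood at 526 and 506 in vehicle, 576 and 579.7 under EC359, 258 and 267 under vorinostat and 255 and 243 in the combination. The 4 libraries with vorinostat held at most 267 CPM and the 4 without it at least 506 CPM, and the log2 fold change was -0.97 ± 0.08 (adjusted p = 7.14e-06) for vorinostat and -1.05 ± 0.08 (adjusted p = 3.41e-06) for the combination. HSPA9, the mitochondrial HSP70 mortalin, stood at 696 and 697 in vehicle, 1151 and 1006 under EC359, 616 and 617 under vorinostat and 837 and 805 in the combination. EC359 raised HSPA9 without vorinostat, by 0.63 ± 0.09 (adjusted p = 0.00123), and with it, by 0.41 ± 0.09 (adjusted p = 0.00771), and no other of the 41 genes passed as higher in both. The call without vorinostat was lost on leaving out either vehicle library, at adjusted p up to 0.0289, and in the fit on 4 libraries. The call with vorinostat held in 6 of 15 alternatives and was lost with RLE or total-count scaling, with the replicate block and without any one vehicle, vorinostat or combination library, at adjusted p up to 0.101. TRAP1, the mitochondrial HSP90, passed in 1 comparison, the combination against EC359, at -0.62 ± 0.13 (adjusted p = 0.00194). HSPE1, the partner of HSPD1, ranged from 6.43 to 41.1 CPM, with EC359 libraries of 6.72 and 41.1, and did not pass. Its log2 fold change in the combination against vehicle was -1.87 (adjusted p = 0.0333), at 9.67 and 6.43 CPM beside 20.4 and 38.6. In the fit on only those 4 libraries HSPE1 passed. Of its 50-base stretches 48.2% occur in transcripts of other genes, and its exons lie under HSPD1 on the other strand.

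HSPA5 was the ER chaperone that changed most. HSPA5 lies at chr9:127997132-128003661 (GRCh37, minus strand) and encodes BiP, the HSP70 of the ER. In CPM it stood at 1678 and 1699.8 in vehicle, 1244 and 1355 under EC359, 5696 and 5732 under vorinostat and 12672 and 11544 in the combination. The 4 groups did not overlap: EC359 libraries lay below vehicle, vorinostat libraries above it and combination libraries above vorinostat. The log2 fold change against vehicle was -0.38 ± 0.08 (adjusted p = 0.0099) for EC359, 1.76 ± 0.08 (adjusted p = 3.43e-07) for vorinostat and 2.84 ± 0.08 (adjusted p = 2.98e-08) for the combination, the last being a 7.17-fold difference. Adding EC359 to vorinostat raised HSPA5 by 1.08 ± 0.08 (adjusted p = 2.61e-05), and the EC359 effect with vorinostat exceeded the effect without it by 1.46 ± 0.11 (adjusted p = 0.000172). That interaction passed in all 14 alternative fits, where it ranged from 1.34 to 1.52. The decrease with EC359 alone was lost in 10 of 15 alternative fits, among them RLE or total-count scaling, a fit on only the 4 libraries compared, and those without any one library of the vehicle, vorinostat or combination groups, at adjusted p up to 0.118.

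**Figure D3:**
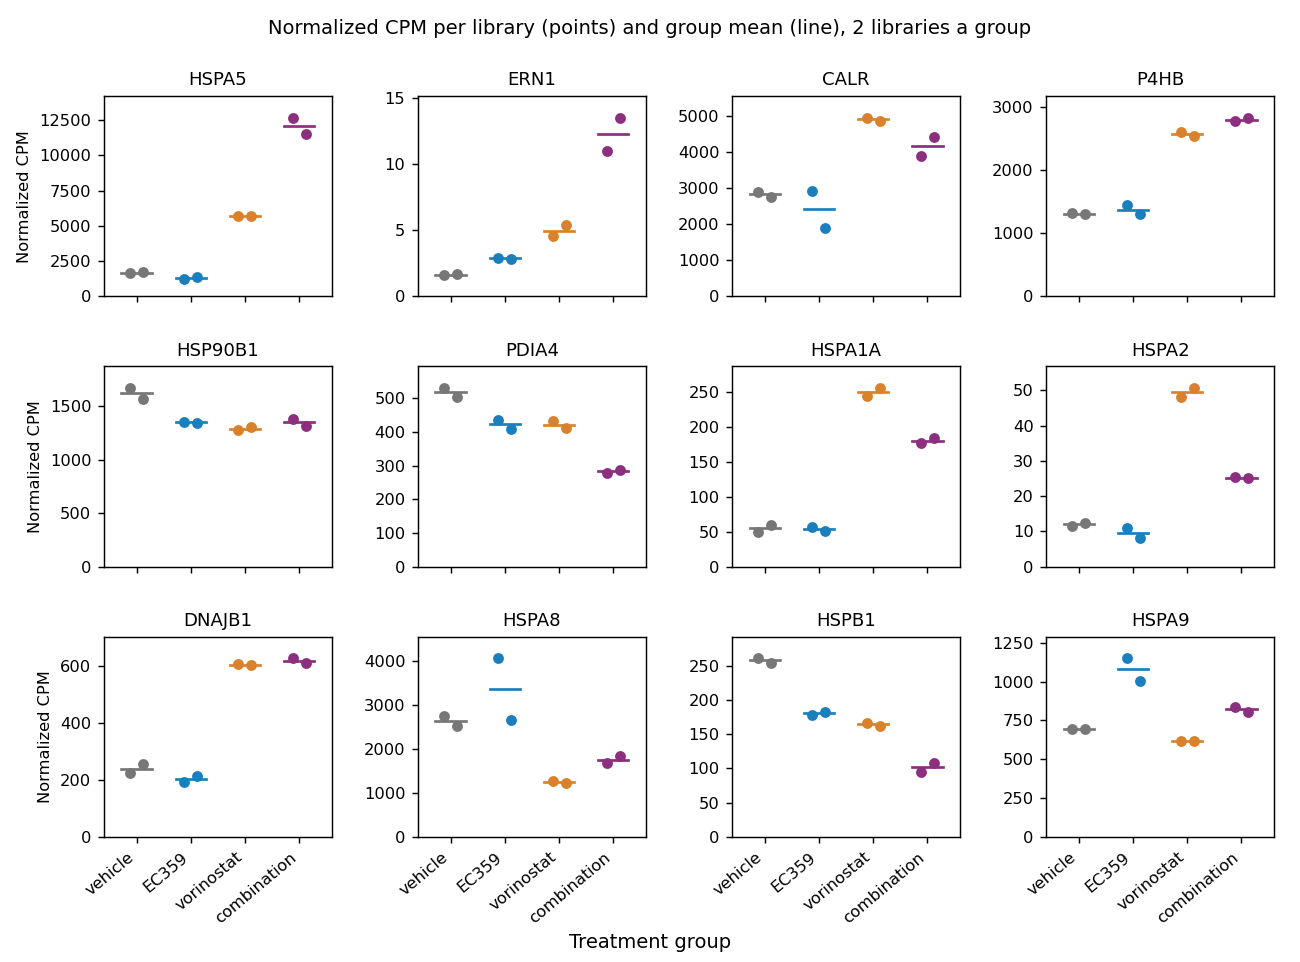
Points are the 2 libraries of a group and lines their mean, in normalized CPM on an axis from 0, for 12 of the genes. HSPA5 and ERN1 step up from vorinostat to the combination, HSPA1A and HSPA2 step down, and P4HB and DNAJB1 stay level between them.

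The rise of the summed ER folding genes with vorinostat and in the combination was mostly that of HSPA5. The 14 ER folding genes together held 12296 and 11829 CPM in vehicle, 11826 and 10005 under EC359, 18476 and 18335 under vorinostat and 24221 and 23659 in the combination. The mean sum of the combination was 1.98 times that of vehicle with HSPA5 and 1.14 times without it. HSPA5 made up 13.6% and 14.4% of that sum in the vehicle libraries, 10.5% and 13.5% under EC359, 30.8% and 31.3% under vorinostat and 52.3% and 48.8% in the combination. Summed cytosolic chaperones changed less, with a mean of 0.978 times vehicle in the combination. Per kilobase of transcript (RPKM), HSPA5 ranked 7 of 42 in vehicle, at 431 ± 4, and 1 of 42 in the combination, at 3088 ± 204 (mean ± SD, n = 2). In vehicle the most abundant per length were CALR, HSP90AA1 and HSPA8.

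**Figure D4:**
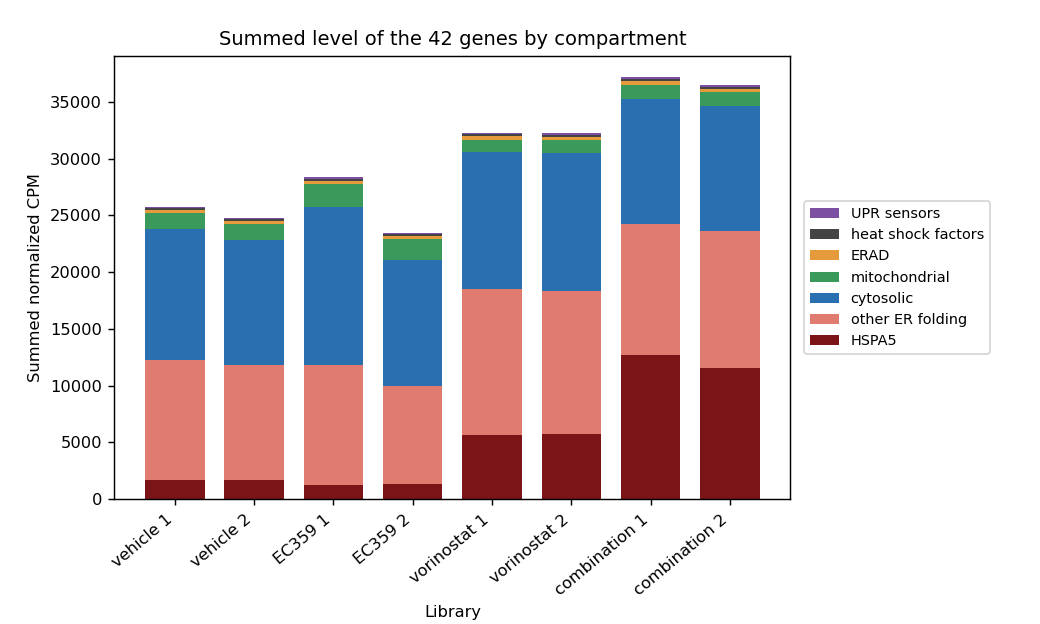
Stacked bars give the summed normalized CPM of the 42 genes in each of the 8 libraries, by compartment, with HSPA5 drawn apart from the other 13 ER folding genes. The HSPA5 segment grows from 1678 CPM in the first vehicle library to 12672 CPM in the first combination library, while the rest of the ER folding genes stay between 8650.2 and 12779.7 CPM.

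The promoter of HSPA5 is shown because this gene carried the largest change of the ER folding genes. The 250 bases before its annotated start hold 1 ER stress element (CCAAT, any 9 bases, CCACG, on either strand), printed in capitals. In the whole window of 300 bases, which runs 50 bases past the start and is not shown in full, CCAAT occurs 5 times on both strands together, a number that 0.359% of all 35116 promoter windows reach.
HSPA5, chr9:125241344-125241593, minus strand: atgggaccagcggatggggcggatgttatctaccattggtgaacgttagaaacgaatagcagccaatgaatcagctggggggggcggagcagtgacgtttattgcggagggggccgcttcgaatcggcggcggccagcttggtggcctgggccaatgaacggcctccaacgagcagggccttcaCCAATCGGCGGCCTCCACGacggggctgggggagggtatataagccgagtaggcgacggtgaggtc
Of all 27305 genes with a promoter window 0.0916% held an ER stress element, and of the 13 ER folding genes 6 did (46.2%): HSPA5, HSP90B1, CALR, CANX, PDIA6 and CRELD2. ER stress element II (ATTGG, any base, CCACG) was found in 0.0696% of all genes, and in HYOU1 and SDF2L1 of the ER genes. Windows of the genes that moved in different directions are given with the element in capitals, which in CALR, CRELD2 and HYOU1 reads on the opposite strand.
CALR, chr19:12938372-12938414, plus strand: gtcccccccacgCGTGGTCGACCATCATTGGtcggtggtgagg
HSP90B1, chr12:103930204-103930246, plus strand: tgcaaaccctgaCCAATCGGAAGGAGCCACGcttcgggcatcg
CANX, chr5:179698766-179698808, plus strand: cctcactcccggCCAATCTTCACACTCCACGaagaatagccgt
PDIA6, chr2:10812841-10812883, minus strand: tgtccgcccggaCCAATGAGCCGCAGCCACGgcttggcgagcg
CRELD2, chr22:49918542-49918584, plus strand: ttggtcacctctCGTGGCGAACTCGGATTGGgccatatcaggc
HYOU1, chr11:119057262-119057296, minus strand: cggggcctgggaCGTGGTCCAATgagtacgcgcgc
The 6 genes with the ER stress element did not move together. Vorinostat raised HSPA5 and CALR and lowered HSP90B1, CANX and PDIA6, beside 26.2% raised and 25.9% lowered of all tested genes. The combination against vehicle raised HSPA5 and lowered HSP90B1, CANX, PDIA6 and CRELD2, beside 29.7% and 26.7%. A link between the element and the direction was not tested.

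The lectin chaperones of the ER, which hold glycoproteins during folding, went apart. CALR, calreticulin, rose with vorinostat by 0.79 ± 0.17 (adjusted p = 0.00254), from 2838 ± 98.8 to 4920.2 ± 58.4 CPM (mean ± SD, n = 2). CANX, calnexin, fell by 0.53 ± 0.10 (adjusted p = 0.00106), from 1929 ± 79.8 to 1340.1 ± 13.3 CPM. HSP90B1, the ER HSP90 known as GRP94, stood at 1669.5 and 1566 in vehicle, 1349.6 and 1345 under EC359, 1278 and 1301 under vorinostat and 1375 and 1318 in the combination. All 6 libraries with a drug lay below both vehicle libraries, and the value that passed for vorinostat was -0.33 ± 0.07 (adjusted p = 0.00353).

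The protein disulfide isomerases, which form and reshuffle disulfide bonds, also split. P4HB, the founding member, rose with vorinostat by 0.97 ± 0.08 (adjusted p = 6.99e-06) and in the combination by 1.09 ± 0.08 (adjusted p = 2.57e-06). PDIA3 and PDIA6 fell with vorinostat, with log2 fold changes of -0.43 ± 0.11 (adjusted p = 0.00618) and -0.46 ± 0.09 (adjusted p = 0.00213). Exons of PDIA3 overlap the spans of ELL3 and CATSPER2P1, with at most 115 reads per library, on the other strand. PDIA4 stood at 531 and 505 in vehicle, 434 and 409.9 under EC359, 433 and 411 under vorinostat and 279 and 287 in the combination. EC359 and vorinostat libraries of PDIA4 lay together between vehicle and the combination, and it passed as lower in the combination than in vehicle, at -0.87 ± 0.08 (adjusted p = 1.43e-05), and than under vorinostat, at -0.57 ± 0.08 (adjusted p = 0.00127).

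Of the J-domain partners of BiP, DNAJB9, DNAJB11 and DNAJC3 rose in the combination, and DNAJC10 (ERdj5), named after its values were seen, stood at 237 ± 13.1 CPM in vehicle and 234 ± 11.3 in the combination (mean ± SD, n = 2). DNAJB9 (ERdj4), which returns BiP to IRE1, stood at 9.63 and 11.8 in vehicle, 15.8 and 19.4 under EC359, 16.3 and 14.5 under vorinostat and 33.5 and 26.2 in the combination. The vehicle libraries were lowest and the combination libraries highest, with the single drugs between them, and DNAJB9 passed at 1.48 ± 0.18 (adjusted p = 8.26e-05) against vehicle and 0.96 ± 0.18 (adjusted p = 0.00475) against vorinostat. DNAJB11 (ERdj3) rose by 0.89 ± 0.14 (adjusted p = 0.000429) and DNAJC3 (p58IPK) by 0.58 ± 0.12 (adjusted p = 0.00217) in the combination against vehicle, and neither passed under vorinostat. HYOU1, the HSP110 of the ER that serves BiP, passed as higher under vorinostat, at 0.59 ± 0.10 (adjusted p = 0.00072), and stood at 0.21 ± 0.10 (adjusted p = 0.0894) in the combination. Among the smaller ER proteins, CRELD2 stood at 34.1 and 41.9 in vehicle, 20.8 and 26.4 under EC359, 37.1 and 37.8 under vorinostat and 15.7 and 20.7 in the combination. Under vorinostat CRELD2 differed from vehicle by -0.02 ± 0.17 (adjusted p = 0.924), and in the combination its log2 fold change was -1.06 ± 0.18 (adjusted p = 0.00059) against vehicle and -1.04 ± 0.18 (adjusted p = 0.00314) against vorinostat. SDF2L1, a partner of DNAJB11, did not pass in any comparison, with 13.5 to 48.9 CPM.

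Of the ERAD genes, SEL1L, the scaffold of the HRD1 ubiquitin ligase, rose by 0.82 ± 0.09 (adjusted p = 5.72e-05) with vorinostat and 0.83 ± 0.09 (adjusted p = 4.3e-05) in the combination. EDEM1, which marks misfolded glycoproteins for removal, stood at 94.9 ± 4.21 CPM in vehicle and 138 ± 9.01 under EC359 (mean ± SD, n = 2), a log2 difference of 0.54 ± 0.11 (adjusted p = 0.0125) that did not pass. It passed as lower in the combination than under EC359, at -0.48 ± 0.11 (adjusted p = 0.00492).

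Of the UPR sensors, ERN1 rose with vorinostat and rose again when EC359 was added to it. ERN1 encodes IRE1, which splices XBP1 mRNA, and ranked 40 of 42 per kilobase of transcript in every group. Its CPM were 1.61 and 1.68 in vehicle, 2.93 and 2.79 under EC359, 4.53 and 5.36 under vorinostat and 11 and 13.5 in the combination. The groups did not overlap and rose in the order vehicle, EC359, vorinostat, combination. The log2 fold change was 0.80 ± 0.23 (adjusted p = 0.0453) for EC359, 1.59 ± 0.22 (adjusted p = 0.000208) for vorinostat, 2.89 ± 0.21 (adjusted p = 3.28e-06) for the combination and 1.30 ± 0.19 (adjusted p = 0.0015) for the combination against vorinostat. EIF2AK3, which encodes PERK, stood at 30.1 and 29.2 in vehicle, 38.1 and 29.3 under EC359, 31.4 and 32.7 under vorinostat and 50.5 and 49.3 in the combination. It was higher in the combination than in vehicle by 0.75 ± 0.13 (adjusted p = 0.00085) and than under vorinostat by 0.64 ± 0.13 (adjusted p = 0.00796). The EIF2AK3 call against vorinostat also held in 6 of 15 alternatives and was lost with RLE or total-count scaling, the replicate block, or any one vehicle, vorinostat or combination library left out, at adjusted p up to 0.0975. ATF6 stood at 87.2 and 82 in vehicle, 98.3 and 88.4 under EC359, 84 and 89.5 under vorinostat and 103 and 103 in the combination, and did not pass in any comparison.

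To ask whether EC359 acted alike with and without vorinostat, EC359 against vehicle was set beside the combination against vorinostat. These comparisons share no library, but both come from the same fit and its shared estimate of the spread. Over the 41 genes the 2 log2 fold changes had the same sign in 29, with a Pearson correlation of 0.507 across genes beside 0.287 across all tested genes, and genes are not independent replicates. HSPA9 passed as higher and HSPB1 as lower in both, and HSPA5 passed in opposite directions. Of these 3 calls for EC359 without vorinostat, 0 passed in every alternative. For vorinostat without and with EC359 the sign was the same in 38 of 41 genes, with a correlation of 0.895 beside 0.863 across all tested genes. Of the 41 genes, 9 passed as higher in both and 12 as lower in both. In these 2 comparisons taken singly, 52.1% and 55.8% of all tested genes passed in either direction. For neither pair were same signs or double calls counted over all tested genes, so these counts have no background. The difference between the 2 EC359 effects was itself tested as an interaction: 1 of the 41 genes passed above 0, HSPA5, and 0 below it, beside 1.62% above and 0.482% below of all tested genes, 2.1% in all. At an unadjusted p under 0.05 there were 14 of the 41, which was not counted over all tested genes and has no background. DESeq2 gave 1 above and 1 below at an adjusted p of 0.01, beside 5% of all tested genes in either direction. Leaving out either EC359 library changed the counts of edgeR, and the share of all tested genes in those fits was not computed.

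**Figure D5:**
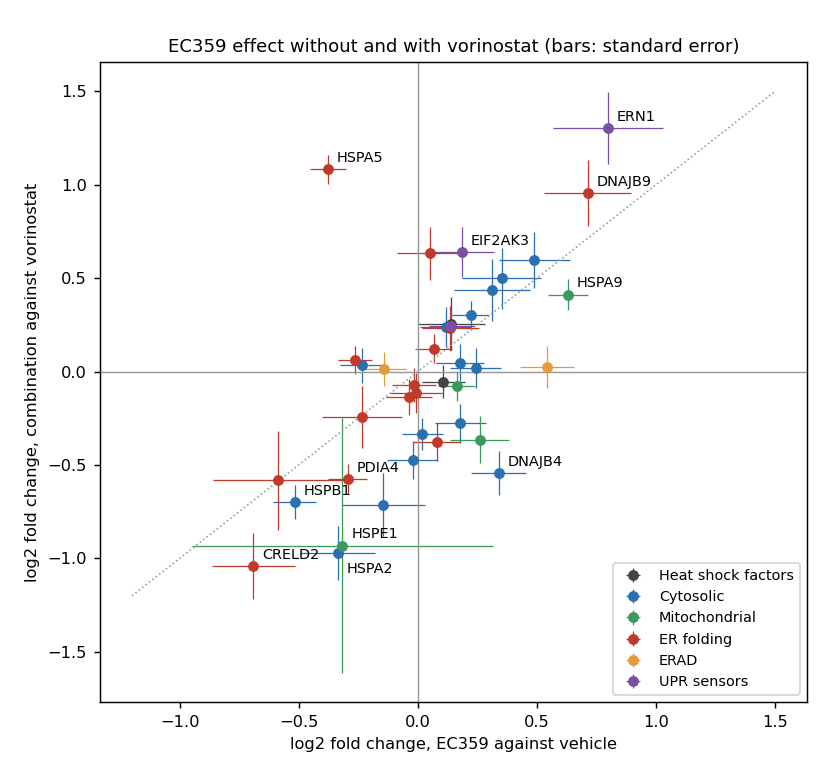
Each point is a gene, with the log2 fold change of EC359 against vehicle on the x axis and of the combination against vorinostat on the y axis, bars of 1 standard error, and a dotted line of equal effects; HSPB8, with very few reads, is not drawn. HSPA5 lies apart from the line, at -0.38 on the x axis and 1.08 on the y axis, and the wide bars of HSPE1 show the spread of its libraries.

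The counts of genes called for EC359 changed when single libraries were left out, also libraries outside the comparison. Why they changed was not tested. For the fits without a library the share of all tested genes was not computed, so their counts have no background. For EC359 against vehicle, leaving out the second EC359 library gave 12 raised and 6 lowered, leaving out the first gave 3 and 4, and leaving out either vehicle library gave 0 and 0. Leaving out either vorinostat library gave 0 lowered there, and either combination library gave 1. For the combination against vorinostat, total-count scaling changed the split of 5 raised and 5 lowered to 3 and 8, RLE to 3 and 6, and DESeq2 gave 7 and 9. In that comparison leaving out either EC359 library gave 11 raised and 13 lowered, leaving out either vorinostat library gave 1 and 0, and leaving out the first or second combination library gave 2 and 0 or 1 and 1, while either vehicle library gave 3 raised. For vorinostat against vehicle the 13 lowered became 7 without the first vehicle or the first vorinostat library and 8 without the second vorinostat library. The genes that lost a vorinostat call on leaving out at least 1 vehicle or vorinostat library were HSF1, DNAJB4, HSP90B1, CALR, CANX, PDIA3, PDIA6 and HYOU1, and in the combination against vehicle HSF1, BAG3, HSP90B1, PDIA3, DNAJC3 and EIF2AK3 lost theirs on leaving out at least 1 vehicle or combination library. Of the 10 genes that passed between the combination and vorinostat, HSPA5 passed in every alternative, and each of the others lost its call on leaving out at least 1 vorinostat or combination library.

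Further genes of the same systems were read from the same fit, from lists written from general knowledge. Their counts in the combination against vehicle stand beside 29.7% raised and 26.7% lowered of all tested genes. In the combination against vehicle 2 were raised and 3 lowered of 13 other cytosolic HSP70, J-domain and BAG genes, led by HSPA4L, an HSP110, at 1.91 ± 0.12 (adjusted p = 1.19e-06) and, downward, HSPA14 at -1.34 ± 0.29 (adjusted p = 0.00264). Of 6 other HSP90 co-chaperones 1 was raised, CDC37, which brings kinases to HSP90, at 1.21 ± 0.19 (adjusted p = 0.000369), and 2 lowered, with PTGES3, the cochaperone p23, at -0.91 ± 0.10 (adjusted p = 5.12e-05). Of 8 subunits of the cytosolic chaperonin TRiC, which folds actin and tubulin, 5 were lowered, with CCT5 at -1.10 ± 0.12 (adjusted p = 3.61e-05). HSPB6 at -3.14 ± 0.84 (adjusted p = 0.00856), with 0 to 1.53 CPM, and HSPB11 were the 2 tested of 5 other small heat shock genes, and both were lowered. Of 7 other mitochondrial genes 2 were raised and 3 lowered, from the protease CLPP at -0.83 ± 0.11 (adjusted p = 0.000124) to the protease HTRA2 at 1.06 ± 0.17 (adjusted p = 0.000512). With lists this short, several of these counts were near the share of all tested genes.

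Of 11 other ER folding genes 2 were raised and 4 lowered in the combination against vehicle, with the oxidase ERO1LB at 1.77 ± 0.15 (adjusted p = 7.18e-06) and TXNDC5 at -2.24 ± 0.56 (adjusted p = 0.00614), at 0.256 to 2.38 CPM. Of 10 other ERAD genes 5 were raised and 4 lowered. HERPUD1, which assembles the HRD1 complex, stood at 88.3 and 95.1 in vehicle, 94.2 and 91.4 under EC359, 181 and 188 under vorinostat and 456 and 421 in the combination, in the same order as HSPA5 from vorinostat to the combination, at 2.26 ± 0.09 (adjusted p = 1.25e-07) against vehicle and 1.23 ± 0.12 (adjusted p = 0.000834) for the interaction. UBE2J1, the ubiquitin-conjugating enzyme of ERAD, was lowest, at -2.23 ± 0.11 (adjusted p = 3.11e-07). All 7 UPR factors passed in the combination against vehicle, 5 raised and 2 lowered, led by DDIT3 (CHOP), the stress factor downstream of PERK, at 2.68 ± 0.10 (adjusted p = 1e-07), and ATF6B at -1.96 ± 0.14 (adjusted p = 3.03e-06). In the combination against vorinostat 5 of these 7 were raised, beside 8.45% of all tested genes. With EC359 alone 1 of these 7 and 1 of the 10 other ERAD genes were raised over 2-fold, beside 1.94% of all tested genes. They were PPP1R15A, at mean CPM of 93.1 in vehicle and 278 under EC359, and EDEM3, at 60.1 and 131. No gene of these lists was lowered over 2-fold by EC359 alone. Alternative fits were not examined for these genes. The interaction passed in 3 of the further genes, above 0 in each, beside 1.62% above and 0.482% below of all tested genes. HERPUD1 was 1 of 10 other ERAD genes tested. DDIT3, at 1.66 ± 0.14 (adjusted p = 0.000311), was 1 of 7 UPR factors. DNAJB2, a J-domain protein, at 1.38 ± 0.15 (adjusted p = 0.0015), was 1 of 13 other cytosolic HSP70, J-domain and BAG genes. Total XBP1 was outside the naming rule and is given because ERN1 acts on it: it stood at 121 and 133 in vehicle, 124 and 154 under EC359, 28.6 and 24.9 under vorinostat and 45.8 and 49.2 in the combination. XBP1 fell by 2.25 ± 0.13 (adjusted p = 1.46e-06) with vorinostat and was higher in the combination than under vorinostat by 0.83 ± 0.13 (adjusted p = 0.00231), and gene counts do not separate its spliced form.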

How the data were processed

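RNA-seq was measured in 8 BT-549 libraries, grouped by the treatment in the labels. The deposited values are raw counts of reads for each gene symbol in 1 list for every library, which the authors made from 50 bp single-end reads aligned to hg19 with TopHat2 and counted on RefSeq genes with HTSeq. The submitters' processing notes name bcl2fastq, TopHat2 2.0.8b and HTSeq; the strand setting and the versions of bcl2fastq and HTSeq are not given in the sources used here. The 5 HTSeq summary lines of each list were left out. They held 37.9% to 42.0% of the total of a library, and alignments that were not unique 29.1% to 31.8%, so genes with near-identical copies may be undercounted.

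Counts were filtered by filterByExpr, scaled by TMM and fitted with 1 mean per group over all 8 libraries in edgeR 4.0.16 (R 4.3.3), with the quasi-likelihood test and Benjamini-Hochberg adjustment over 13694 genes. Residual degrees of freedom were 4, and the common dispersion was 0.0135. Standard errors were obtained as the size of the log2 fold change over the square root of the F statistic. The paper's own threshold adds an absolute log2 fold change over 1, and those counts are given too. The procedure was also run on simulated counts with the same dispersion, 0.0135, for every gene and group and with few changed genes. That run does not show how it behaves with the unequal spread of these groups or the many genes changed here.

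The genes, compartments and other lists were chosen with earlier results of these data known, and the lists came from general knowledge. Values in every library are given for the 5 highest and 5 lowest genes that passed in EC359 against vehicle, vorinostat against vehicle and the combination against vorinostat, for any of the 42 genes with an interaction, the heat shock factors, the UPR sensors, HSPA5 and the HSPA1A and HSPA1B pair. Of each other list the highest and lowest gene that passed in the combination against vehicle are named. CPM of further genes, DNAJB1, HSP90B1 and DNAJC10 among them, and the interactions of other genes were added after their values were seen.

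Coordinates, transcript lengths for RPKM and shared 50-base stretches were read from GENCODE 44 lifted to GRCh37 (the build of hg19), where 42 of 42 symbols matched. Overlaps, from the same source, are of exons of the 42 genes with the whole spans of other genes. Promoters came from RefSeq on GRCh38.p14. Alternatives comprised DESeq2 1.42.0, scaling by RLE or total counts, other filters and thresholds, fits on 4 libraries, the replicate number as a block, the sum of HSPA1A and HSPA1B, and leaving out each library in turn. Figures were drawn with matplotlib 3.10.9 in Python 3.11.15.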

Additional observations from a re-analysis of the deposited data

Results flagged for a closer look

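HSPA5 differed in its response to EC359 between cells without and with vorinostat, by a test of the difference itself. The EC359 effect with vorinostat minus the effect without it was 1.46 ± 0.11 on the log2 scale (SE; adjusted p = 0.000172, edgeR's quasi-likelihood test of the interaction, 2 libraries per group). Without vorinostat both EC359 libraries, at 1244 and 1355 CPM, lay below both vehicle libraries, at 1678 and 1699.8 CPM. With vorinostat both combination libraries, at 12672 and 11544 CPM, lay above both vorinostat libraries, at 5696 and 5732 CPM.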

How the results depend on the processing

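The direction of every gene that passed was kept in every alternative run. Of the genes that passed, 0 of 3 for EC359 against vehicle, 16 of 24 for vorinostat against vehicle, 19 of 25 for the combination against vehicle, 1 of 10 for the combination against vorinostat, 18 of 30 for the combination against EC359 and 1 of 1 for the interaction passed in every alternative. Counts below are of the 41 genes, raised before lowered, with the reported count first. The fits on 4 libraries and those without a library hold fewer samples; the cause of the other differences was not tested. For EC359 against vehicle (1 and 2), DESeq2 gave 3 raised, no filter on low counts 2 raised, RLE and total-count scaling 1 lowered each, the 4 libraries alone 0 and 0, an adjusted p under 0.05 4 and 5, and the added fold threshold 0 and 0. At an unadjusted p under 0.05 there were 14 genes in that comparison, a count with no background over all tested genes. For vorinostat against vehicle (11 and 13), the 4 libraries alone gave 17 raised and the fold threshold 6 and 3. For the combination against vehicle (12 and 13) the fold threshold gave 4 lowered. For the combination against vorinostat (5 and 5), RLE gave 3 raised, total counts 3 and 8, DESeq2 9 lowered, no filter 9 lowered, the 4 libraries alone 11 and 12, an adjusted p under 0.05 8 and 9, and the fold threshold 2 and 1. Of all genes that passed in that comparison 61.6% were raised, against 46.8% with total counts, 54.3% with RLE and 50.7% with DESeq2. For the combination against EC359 (13 and 17) the fold threshold gave 7 and 2. For the interaction (1 and 0), DESeq2, total counts, no filter and an adjusted p under 0.05 gave 1 lowered each. Scaling moved the median of all tested genes by less than 0.1 on the log2 scale in every comparison. Leaving out 1 library at a time gave 0 to 12 raised and 0 to 6 lowered for EC359 against vehicle, 9 to 14 and 7 to 17 for vorinostat against vehicle, 10 to 18 and 9 to 18 for the combination against vehicle, 1 to 11 and 0 to 13 for the combination against vorinostat, 9 to 15 and 13 to 18 for the combination against EC359, and 1 to 4 and 0 to 6 for the interaction. The lone library left in a group was assumed to vary like the other groups. The share of all tested genes was not computed for the fits without a library, so their counts have no background.

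The labels number the libraries of a group 1 and 2 and do not say what the number shares. Deviations from the group means were correlated between same-numbered libraries. The correlation was 0.368 for vehicle and EC359, 0.0390 for vehicle and vorinostat and -0.150 for vehicle and the combination. It was -0.00942 for EC359 and vorinostat, -0.241 for EC359 and the combination and -0.108 for vorinostat and the combination. These values cannot show whether same-numbered libraries shared a batch. The libraries were not treated as pairs, because the labels give no pairing. With the replicate number as a block, 1 gene was raised and 0 lowered by EC359, 11 and 13 by vorinostat, 12 and 12 by the combination against vehicle, 4 and 4 by the combination against vorinostat, 13 and 17 by the combination against EC359, and 1 and 0 had an interaction. With 2 libraries per group, the 2 EC359 libraries differed most, and a gene that did not pass is not shown to be unaffected. HSPB8, with few reads, passed for vorinostat against vehicle in the fit on 4 libraries alone, at an adjusted p of 0.00249, and CRYAB was not tested.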
